A study of Arabidopsis thaliana with 9 samples.

Results

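The transient cold genes described here are 98 of the 32310 Arabidopsis thaliana loci in the deposited tables. Their RNA was higher after 3 h at 4 °C than at 22 °C, and lower after 12 h than after 3 h. These genes were selected on the measured values themselves. Expression was taken as TPM, reads scaled to transcript length and to a fixed total, and summed over the transcripts of each locus. Every statement that libraries lay above, below or within those of another group is on this scale unless another is named. A member had a mean of at least 5 TPM after 3 h, at least 2 times the mean at 22 °C and at least 2 times the mean after 12 h, and a 12 h mean under 2 times that at 22 °C. In addition, its lowest 3 h library lay above the highest library of both other groups. Because every contrast between the groups was used in this choice, the levels of the members are descriptions, and where edgeR's differences or calls are given for them nothing is read from these.

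Steady-state RNA was sequenced from whole wild-type Col-0 seedlings on 1/2 MS medium, with 3 libraries each from seedlings kept at 22 °C, seedlings after 3 h at 4 °C and seedlings after 12 h at 4 °C. No group carried a transgene or mutation. The labels call the seedlings 10 days old and their treatment text places the cold on day 12. Each replicate is described in the methods as a batch of seedlings from separate plates, and what else separated the replicates is not given. The cold began at ZT4 in a day of 16 h light, so the groups were sampled at ZT4 (22 °C), ZT7 (3 h) and ZT16 (12 h), and the light was dimmer in the cold than at 22 °C. Time of day and light therefore cannot be told apart from temperature in any comparison with 22 °C. Between 3 h and 12 h, time of day cannot be told apart from time in the cold. As these are bulk samples, fewer cells of a type and less RNA per cell cannot be told apart either. The libraries hold 15910836 to 24291527 assigned reads. The 5 shoot markers summed to 30678 to 32664 TPM at 22 °C, 26374 to 30262 TPM after 3 h and 24246 to 28026 TPM after 12 h. The 5 root markers summed to 2859 to 3726 TPM, 3225 to 4092 TPM and 2930 to 3308 TPM in the same order, and the 6 seed and flower markers to at most 1.34 TPM in any library.

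Plants sense a drop in temperature within minutes, with a rise in cytosolic calcium among the first events. A first wave of genes follows, many of which also answer touch, wounding and microbial elicitors: transcription factors of the ERF, WRKY and C2H2 zinc finger families, ubiquitin ligases, protein phosphatases and hormone enzymes. Their mRNAs are typically unstable, so that a level can fall soon after transcription stops. CAMTA factors, which bind calmodulin, act on part of this wave through a short CG-rich element, and the CBF factors start a later wave of cold-regulated genes.

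Of the 15333 loci with at least 5 TPM after 3 h, 543 met the ratio to 22 °C without overlap of the 3 h and 22 °C libraries. After 12 h, 373 of these were still at or above 2 times the 22 °C mean and 98 were the transient genes, and the other 72 missed another part of the rule. Together the 98 genes held 0.303% to 0.321% of all TPM at 22 °C, 0.937% to 1.03% after 3 h and 0.273% to 0.319% after 12 h. Their 3 h means ran from 5.38 to 1984 TPM with a median of 41.1 TPM, and 23 of them reached 100 TPM. The 3 h mean was 2.01 to 16.7 times that at 22 °C (median 3.24) and 2.01 to 27.1 times that after 12 h (median 3.46). In 41 genes it was at least 3 times both other groups, and in 14 genes at least 5 times. The coefficient of variation over the 3 libraries had its median at 13.6% in the 22 °C group, 10.7% in the 3 h group and 15.7% in the 12 h group.

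**Figure D1:**
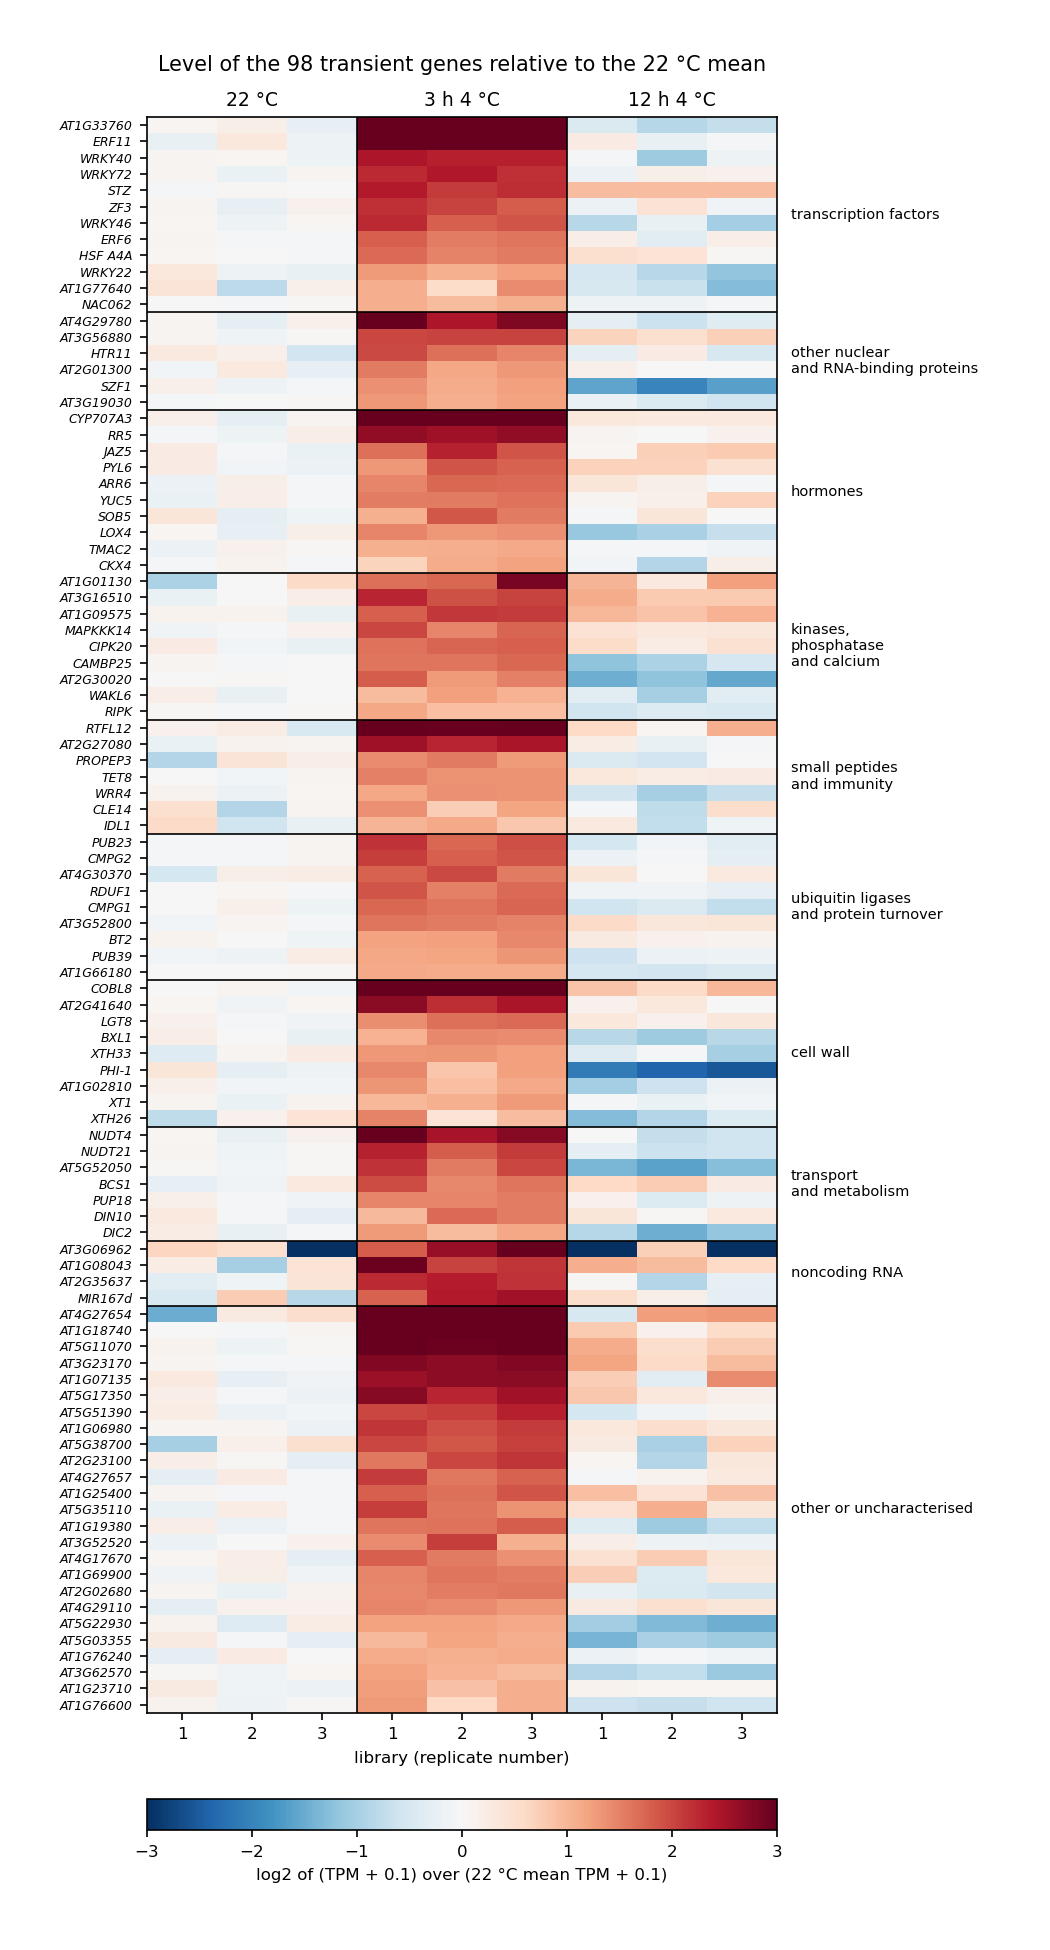
Level of each of the 98 transient genes in the 9 libraries, as log2 of TPM + 0.1 over the 22 °C mean + 0.1, with genes in rows grouped by role and libraries in columns in time order. Colours stop at 3 and -3, so larger differences look alike. All 98 rows are red or pale red in the 3 libraries after 3 h, and the 12 h columns range from blue (PHI-1, SZF1) to pale red (STZ, AT1G09575).

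Edge-of-range genes show what the thresholds did. On the level, AT1G08043 (5.38 TPM after 3 h), AT1G77640 (5.64), XTH26 (5.90), AT1G69900 (6.08) and YUC5 (6.32) were just inside, and AGD11 (4.70), AT4G04972 (4.54), IAA6 (4.53), AT5G41763 (4.41) and AT3G18300 (4.39) just outside. On the ratio to 22 °C, RIPK (2.01), IDL1 (2.01), AT1G76600 (2.02), CKX4 (2.03) and XTH26 (2.05) were just inside, and AT2G30230 (1.99), AT3G15530 (1.99), MYB47 (1.98), AT5G53500 (1.97) and CPK32 (1.95) just outside. On the ratio of 3 h to 12 h, AT1G23710 (2.01), AT1G25400 (2.04), AT4G29110 (2.05), AT1G09575 (2.07) and AT4G17670 (2.07) were just inside. NHL3 (1.99), AT4G19520 (1.99), AT2G33510 (1.98), AT5G51790 (1.93) and AT1G11185 (1.92) fell just short of it. The bound on 12 h over 22 °C kept AT1G09575 (1.98), AT1G08043 (1.94), AT1G01130 (1.91), STZ (1.90) and AT3G23170 (1.90), and it left out NDR1 (2.03), AT1G14480 (2.03), AT5G10750 (2.03), WRKY48 (2.08) and AT5G45630 (2.23). For the gap between libraries, the lowest 3 h library over the highest other one was 1.00 in XTH26, 1.13 in AT1G77640, 1.16 in CLE14, 1.18 in IDL1 and 1.21 in AT5G35110. It was 0.975 in AT4G15953, 0.789 in MIR169a, 0.596 in MIR833a, 0.235 in AT1G22800 and 0 in U2.14, which missed the set by this alone. Counted over all loci, 154 failed only the ratio to 22 °C, 60 only the level, 53 only the ratio to 12 h, 22 only the bound at 12 h and 8 only the gap.

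The members' own promoter sequences were not used by the rule, and 2 short elements are shown in them. Of the 94 protein-coding members, 34 (36.2%) held the letters CGCGT on either strand between 250 bases before and 50 bases after the annotated gene start, against 22.1% of 367 protein-coding genes that were still high at 12 h, 9.92% of 15147 genes with at least 5 TPM after 3 h and 8.702% of all 27443 promoters. CGCGT is the core of the element bound by CAMTA factors. The W-box form TTGACC, bound by WRKY factors, was in 22 members (23.4%), against 13.4%, 14.2% and 14.2% in the same 3 sets. Only these letters are called a W-box here, and other forms such as TTGACT were not searched or put in capitals. No test was run on these shares, and a match is a run of letters, not a shown binding site. The stretches before the start of 6 members with several matches or with a neighbouring member are printed here, with each CGCGT or TTGACC on either strand in capitals. All are 250 bases 5′ to 3′ on the gene's strand and end at the base before the annotated start, read from the TAIR10.1 assembly with RefSeq's annotation.
DIC2 (AT4G24570, chr4:12686209-12686458, plus strand): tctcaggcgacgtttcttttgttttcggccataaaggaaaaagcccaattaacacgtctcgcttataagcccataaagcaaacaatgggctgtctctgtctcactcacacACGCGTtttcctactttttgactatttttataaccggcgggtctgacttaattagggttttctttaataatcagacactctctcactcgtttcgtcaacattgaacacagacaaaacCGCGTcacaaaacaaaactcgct
NAC062 (AT3G49530, chr3:18364960-18365209, minus strand): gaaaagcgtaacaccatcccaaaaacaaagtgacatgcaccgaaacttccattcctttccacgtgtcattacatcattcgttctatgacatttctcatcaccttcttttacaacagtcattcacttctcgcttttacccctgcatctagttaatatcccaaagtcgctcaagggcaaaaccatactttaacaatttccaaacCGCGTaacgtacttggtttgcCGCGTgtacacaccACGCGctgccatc
AT4G27654 (chr4:13811362-13811611, plus strand): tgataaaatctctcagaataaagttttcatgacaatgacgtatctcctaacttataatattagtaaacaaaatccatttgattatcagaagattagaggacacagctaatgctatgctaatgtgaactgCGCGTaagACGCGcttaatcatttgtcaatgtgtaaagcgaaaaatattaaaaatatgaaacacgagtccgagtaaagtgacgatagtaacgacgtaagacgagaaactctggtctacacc
AT4G27657 (chr4:13812739-13812988, plus strand): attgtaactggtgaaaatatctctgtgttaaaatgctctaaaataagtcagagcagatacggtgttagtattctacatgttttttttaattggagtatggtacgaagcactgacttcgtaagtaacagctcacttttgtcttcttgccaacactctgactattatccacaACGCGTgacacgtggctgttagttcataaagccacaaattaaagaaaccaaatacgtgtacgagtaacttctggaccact
CMPG1 (AT1G66160, chr1:24636946-24637195, plus strand): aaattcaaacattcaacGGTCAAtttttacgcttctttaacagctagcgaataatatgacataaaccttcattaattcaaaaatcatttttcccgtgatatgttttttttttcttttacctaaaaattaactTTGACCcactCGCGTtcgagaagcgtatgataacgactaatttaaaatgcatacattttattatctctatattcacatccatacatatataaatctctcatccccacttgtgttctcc
PROPEP3 (AT5G64905, chr5:25939312-25939561, plus strand): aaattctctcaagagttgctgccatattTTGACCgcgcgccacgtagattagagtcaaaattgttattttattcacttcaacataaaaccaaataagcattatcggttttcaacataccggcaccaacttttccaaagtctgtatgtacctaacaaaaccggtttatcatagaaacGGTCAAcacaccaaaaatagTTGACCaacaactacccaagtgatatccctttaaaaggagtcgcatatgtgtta

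In DIC2 the matches begin 140, 139 and 23 bases before the start, the first 2 being 1 palindrome read on both strands, and in NAC062 they begin 48, 27 and 13 bases before it. AT4G27654 and AT4G27657 lie side by side on chromosome 4 on the same strand, 862 bases apart with no other annotated gene between, and were the only members so placed. Their matches begin 121 and 113 bases before the start in AT4G27654 and 80 and 79 bases before it in AT4G27657. CMPG1 has a W-box 233 bases and another 118 bases before the start and a CGCGT 108 bases before it, and PROPEP3 has W-boxes at 222, 74 and 54 bases and no CGCGT.

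Among the members, 12 are DNA-binding transcription factors. AT1G33760 was at 1.88, 2.04 and 1.498 TPM at 22 °C, 36.7, 22.3 and 31.4 TPM after 3 h and 1.32, 0.948 and 1.06 TPM after 12 h. This ERF-type factor of the DREB subfamily A-4 led all members by the smaller of its 2 ratios (16.7), and its 3 h libraries were at least 22.3 TPM where no other library passed 2.04 TPM. By edgeR's model the difference was 4.09 on the log2 scale (SE 0.21) for 3 h against 22 °C and -4.57 (SE 0.23) for 12 h against 3 h. The libraries for ERF11 gave 5.08, 7.50 and 5.36 TPM at 22 °C, 51.7, 49.6 and 52.3 TPM after 3 h and 7.07, 5.09 and 5.73 TPM after 12 h. ERF11 is a repressor of the ethylene response family, and its 12 h libraries lay within the 22 °C range. At 22 °C ERF6 had 14.6, 13.3 and 13.6 TPM, with 48.5, 40.4 and 42.1 TPM after 3 h and 16.02, 10.8 and 15.8 TPM after 12 h. ERF6, an activator of the same family, was 3.15 times 22 °C after 3 h. The last ERF-type member, AT1G77640 of DREB subfamily A-5, was at 5.64 TPM after 3 h, and its libraries of the 3 groups were close (lowest at 3 h 3.95 TPM, highest elsewhere 3.48 TPM).

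For WRKY40 the values were 14.8, 14.3 and 12.5 TPM at 22 °C, 75.3, 70.4 and 69.7 TPM after 3 h and 13.4, 6.59 and 12.4 TPM after 12 h. WRKY40 is a repressor in immune and abscisic acid responses. Its 12 h libraries at 6.59 and 12.4 TPM were below every 22 °C library, and the other, at 13.4 TPM, was within their range. Levels of WRKY46 were 4.11, 3.54 and 4.10 TPM at 22 °C, 19.0, 13.9 and 14.8 TPM after 3 h and 2.17, 3.33 and 1.88 TPM after 12 h. All 3 WRKY46 libraries after 12 h lay below all 3 at 22 °C. WRKY22 had 14.1, 10.1 and 9.67 TPM at 22 °C, 27.6, 23.9 and 26.6 TPM after 3 h and 7.96, 6.26 and 4.91 TPM after 12 h. WRKY22, a factor of elicitor signaling, showed the same order, with 12 h libraries below 22 °C and 22 °C below 3 h. WRKY72, which acts in basal defense, averaged 3.41 ± 0.37 TPM at 22 °C, 17.0 ± 1.3 TPM after 3 h and 3.52 ± 0.46 TPM after 12 h (SD, n = 3).

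STZ was at 33.9, 35.6 and 34.5 TPM at 22 °C, 181, 150.01 and 161 TPM after 3 h and 65.5, 66.0 and 66.4 TPM after 12 h. STZ, also called ZAT10, is a C2H2 zinc finger repressor of stress genes, and it was among the members that stayed highest at 12 h, with all 3 libraries above all 3 at 22 °C. The libraries for ZF3 gave 7.04, 5.61 and 7.24 TPM at 22 °C, 30.4, 27.3 and 23.4 TPM after 3 h and 5.89, 9.06 and 6.19 TPM after 12 h. Its relative ZF3, also called AZF3, had 12 h libraries that overlapped those at 22 °C. At 22 °C NAC062 had 42.0, 41.0 and 42.7 TPM, with 89.7, 81.4 and 88.0 TPM after 3 h and 37.9, 37.8 and 40.7 TPM after 12 h. NAC062 is a membrane-tethered NAC factor released in the cold, and on the TPM scale its 12 h libraries lay just under those at 22 °C. By edgeR's model the log2 difference of NAC062 for 12 h against 22 °C was 0.10 (SE 0.07). For HSF A4A the values were 16.4, 15.7 and 15.5 TPM at 22 °C, 51.4, 44.6 and 46.6 TPM after 3 h and 22.2, 21.2 and 16.2 TPM after 12 h. The heat shock factor HSF A4A sat above the 22 °C range in 2 of the 3 libraries after 12 h.

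Another 6 members were grouped as proteins of the nucleus or of RNA, in part from RefSeq's product names. Levels of SZF1 were 158, 127 and 139 TPM at 22 °C, 367, 308 and 335 TPM after 3 h and 47.3, 35.8 and 45.6 TPM after 12 h. SZF1, a tandem zinc finger protein that binds RNA and acts in salt and immune responses, was at 0.303 of its 22 °C mean after 12 h. AT3G56880 had 79.1, 68.1 and 75.8 TPM at 22 °C, 301, 305 and 304 TPM after 3 h and 119, 104 and 122 TPM after 12 h. AT3G56880 holds a VQ motif, the mark of proteins that bind WRKY factors, and varied little within each group. AT3G19030 was at 839.7, 859.8 and 878 TPM at 22 °C, 2131, 1823 and 1997 TPM after 3 h and 753, 632 and 567 TPM after 12 h. AT3G19030 was the most abundant member, named in RefSeq as a TFIID subunit 1b-like protein, and its 12 h libraries were all below those at 22 °C on the TPM scale. The libraries for AT4G29780 gave 18.7, 14.3 and 19.6 TPM at 22 °C, 149, 94.3 and 123 TPM after 3 h and 14.2, 11.3 and 13.5 TPM after 12 h. AT4G29780, annotated as a nuclease, was 6.95 times 22 °C after 3 h and 9.38 times 12 h. The other 2 were histone gene HTR11 and AT2G01300, at 15.1 and 8.89 TPM after 3 h.

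A set of 10 members make, break down or sense hormones, with genes of several hormones among them. At 22 °C CYP707A3 had 23.8, 17.6 and 22.5 TPM, with 246, 222 and 248 TPM after 3 h and 26.8, 26.0 and 26.3 TPM after 12 h. CYP707A3, an abscisic acid 8′-hydroxylase that inactivates the hormone, ranked next after AT1G33760 by the smaller of the 2 ratios and had 12 h libraries only just above the 22 °C range. For PYL6 the values were 4.08, 3.23 and 3.02 TPM at 22 °C, 8.60, 13.1 and 11.9 TPM after 3 h and 5.61, 5.61 and 4.74 TPM after 12 h. PYL6, an abscisic acid receptor, stayed above 22 °C after 12 h in all 3 libraries. TMAC2, which encodes an ABI5-binding protein of abscisic acid signaling, averaged 8.11 ± 0.88 TPM at 22 °C, 17.4 ± 0.37 TPM after 3 h and 7.75 ± 0.23 TPM after 12 h (SD, n = 3).

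Levels of RR5 were 37.8, 34.9 and 44.7 TPM at 22 °C, 248, 229 and 249.7 TPM after 3 h and 41.6, 39.7 and 42.9 TPM after 12 h. RR5 and ARR6 are type-A response regulators, induced by cytokinin and repressing its signal. ARR6 had 23.2, 29.5 and 25.6 TPM at 22 °C, 72.4, 86.4 and 84.8 TPM after 3 h and 33.9, 29.3 and 25.002 TPM after 12 h. After 12 h the RR5 libraries lay within the 22 °C range and those of ARR6 overlapped it, with 1 above. CKX4, a cytokinin oxidase that degrades the hormone, and SOB5, whose overexpression raises cytokinin, were 2.03 and 2.93 times 22 °C after 3 h. LOX4 was at 6.28, 5.10 and 6.82 TPM at 22 °C, 16.9, 15.2 and 15.9 TPM after 3 h and 2.68, 3.02 and 3.73 TPM after 12 h. LOX4, a lipoxygenase of jasmonate synthesis, had all 12 h libraries under all 22 °C libraries. The libraries for JAZ5 gave 2.77, 2.23 and 2.01 TPM at 22 °C, 7.59, 12.0 and 8.97 TPM after 3 h and 2.45, 3.93 and 4.08 TPM after 12 h. JAZ5, a repressor of the jasmonate response, was higher than at 22 °C in 2 of its 3 libraries after 12 h. YUC5, a flavin monooxygenase of auxin synthesis, averaged 2.05 ± 0.30 TPM at 22 °C, 6.32 ± 0.24 TPM after 3 h and 2.61 ± 0.66 TPM after 12 h.

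**Figure D2:**
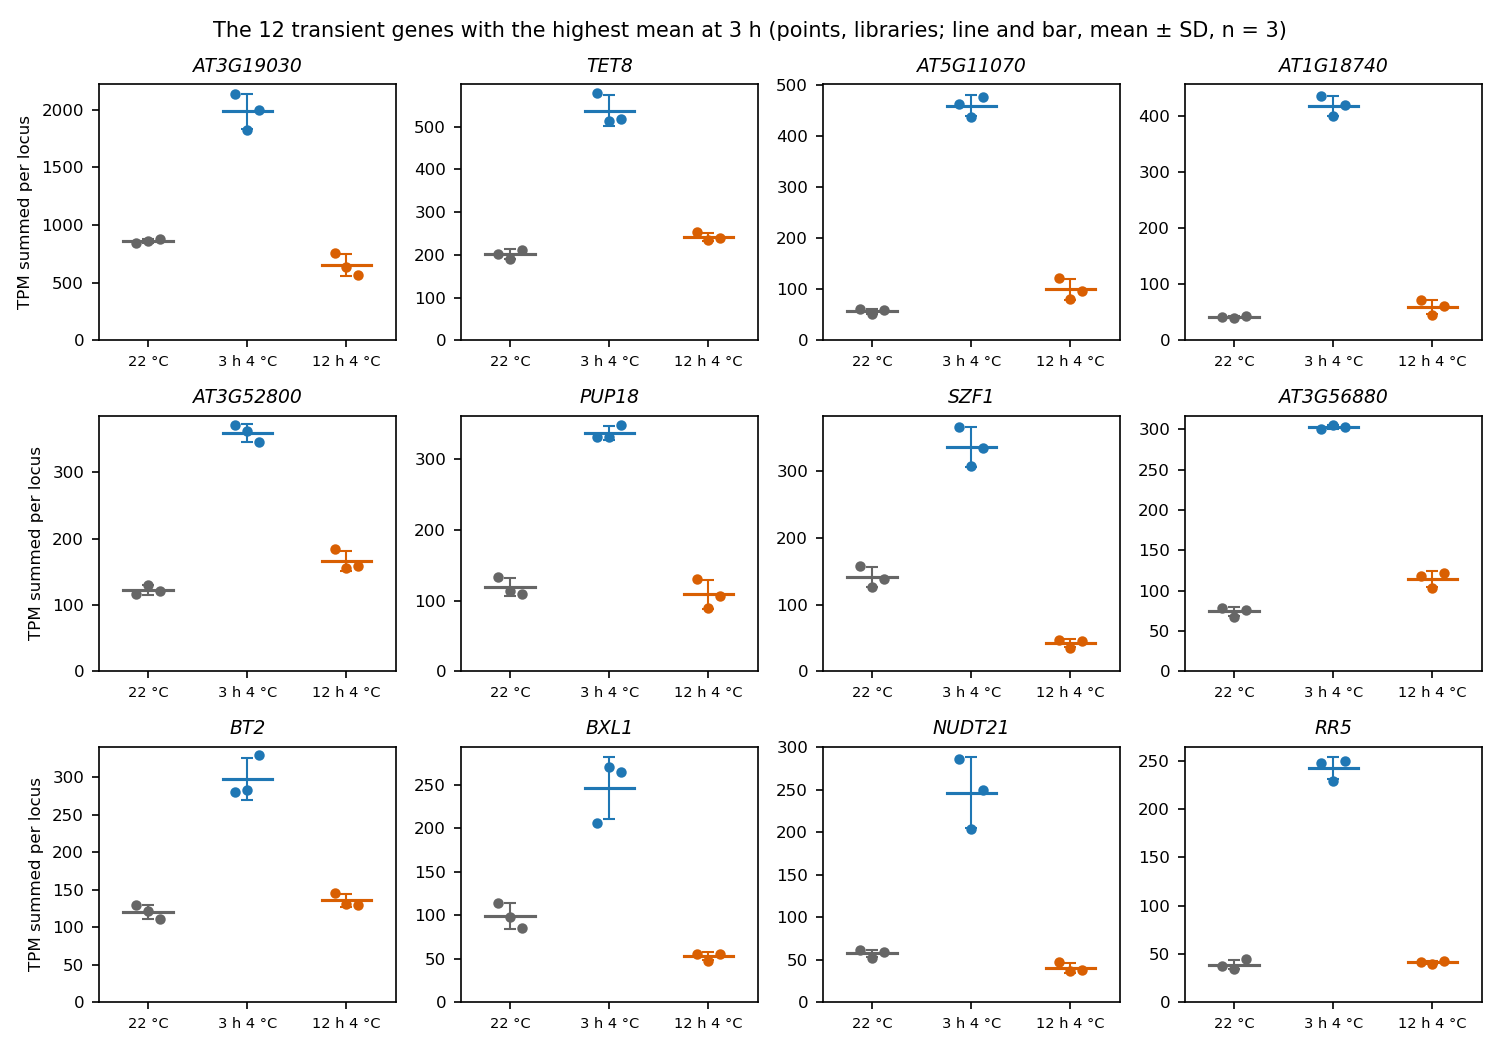
TPM summed per locus of the 12 transient genes with the highest 3 h mean, in each library (points) with the mean and SD (line and bar, n = 3), by group in time order. In every panel the 3 libraries after 3 h lie above the other 6, as the rule required, and AT3G19030, SZF1, BXL1 and NUDT21 have all 12 h libraries below all at 22 °C.

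Kinases, a phosphatase or proteins of calcium signaling made up 9 members. At 22 °C AT2G30020 had 20.7, 21.4 and 20.6 TPM, with 74.05, 51.0 and 59.7 TPM after 3 h and 7.57, 8.93 and 7.17 TPM after 12 h. AT2G30020 encodes the protein phosphatase AP2C1, which acts on stress MAP kinases, and was at 0.377 of its 22 °C mean after 12 h. MAPKKK14, CIPK20 (a kinase bound by calcineurin B-like calcium sensors), RIPK (which phosphorylates the immune regulator RIN4) and WAKL6 were 3.38, 3.32, 2.01 and 2.15 times 22 °C after 3 h. For AT1G09575 the values were 5.37, 5.41 and 4.26 TPM at 22 °C, 17.5, 22.3 and 21.8 TPM after 3 h and 10.1, 9.22 and 10.5 TPM after 12 h. AT1G09575, of the calcium uniporter family, was the member with the highest 12 h level relative to 22 °C, 1.98 times, with no overlap of the libraries. Levels of AT1G01130 were 1.14, 2.31 and 3.47 TPM at 22 °C, 7.53, 7.86 and 17.2 TPM after 3 h and 4.78, 2.86 and 5.57 TPM after 12 h. This kinase-like locus was uneven over its 3 h libraries and had as few as 2 estimated reads in a library. CAMBP25, a calmodulin-binding protein, was at 0.550 of 22 °C after 12 h, and AT3G16510, with a calcium-dependent lipid-binding domain, at 1.89 times.

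The next 7 members are small peptides or proteins of immunity. PROPEP3 had 2.75, 6.83 and 5.90 TPM at 22 °C, 13.9, 15.5 and 12.6 TPM after 3 h and 3.82, 3.44 and 5.19 TPM after 12 h. PROPEP3 is the precursor of an elicitor peptide, and its 22 °C and 12 h libraries overlapped. RTFL12 was at 8.82, 9.42 and 5.77 TPM at 22 °C, 81.4, 63.3 and 71.8 TPM after 3 h and 12.2, 8.32 and 17.2 TPM after 12 h. RTFL12 belongs to the ROTUNDIFOLIA-like polypeptides, and its 12 h libraries were uneven (8.32 to 17.2 TPM). IDL1 and CLE14, signaling peptides related to IDA and CLAVATA3, were at 11.5 and 7.18 TPM after 3 h and close to the thresholds. The libraries for TET8 gave 203, 190.2 and 212 TPM at 22 °C, 579, 514 and 518 TPM after 3 h and 253, 234 and 239 TPM after 12 h. TET8 is a tetraspanin found on plant extracellular vesicles, and after 12 h it was still above the 22 °C range, at 1.1998 times the mean. At 22 °C AT2G27080 had 18.9, 23.3 and 22.8 TPM, with 126, 106 and 119.6 TPM after 3 h and 25.1, 18.5 and 20.8 TPM after 12 h. AT2G27080 is annotated in the LEA hydroxyproline-rich glycoprotein family. The resistance protein WRR4, which recognizes white rust, was 2.47 times 22 °C after 3 h and 0.594 of it after 12 h.

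Another 9 members act in protein turnover, 6 of them U-box or RING ubiquitin ligases. For PUB23 the values were 11.6, 12.0 and 12.96 TPM at 22 °C, 54.9, 40.1 and 46.7 TPM after 3 h and 8.40, 11.4 and 9.80 TPM after 12 h. PUB23 dampens immune signaling. On the TPM scale its 12 h libraries lay under all 22 °C libraries, as did those of CMPG1, CMPG2, PUB39 and RDUF1. By edgeR's model the log2 differences for 12 h against 22 °C were -0.10, -0.39, 0.04, -0.12 and 0.05 in this order. CMPG1 averaged 11.2 ± 1.2 TPM at 22 °C, 36.4 ± 2.0 TPM after 3 h and 7.42 ± 0.80 TPM after 12 h (SD, n = 3). The sixth ligase, AT4G30370, overlapped between 22 °C and 12 h. Levels of BT2 were 130.2, 122 and 112 TPM at 22 °C, 281, 283 and 330.1 TPM after 3 h and 146, 132 and 129 TPM after 12 h. BT2, a scaffold of cullin ligases that also answers nitrate and sugar, overlapped as well. AT3G52800 had 116, 131 and 121 TPM at 22 °C, 371, 362 and 345 TPM after 3 h and 184, 156 and 159 TPM after 12 h. AT3G52800 holds A20 and AN1 zinc fingers, as stress-associated proteins with ubiquitin ligase activity do, and stayed above the 22 °C range. The aspartyl protease AT1G66180 was at 182 to 187 TPM after 3 h and was lower after 12 h than at 22 °C in all libraries.

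A further 9 members act at the cell wall. PHI-1 was at 51.2, 33.0 and 35.9 TPM at 22 °C, 109, 71.8 and 93.4 TPM after 3 h and 9.33, 7.56 and 6.79 TPM after 12 h. PHI-1, of the EXORDIUM family, had the lowest 12 h level of all members relative to 22 °C, 0.197 times. The libraries for BXL1 gave 114, 98.2 and 85.0 TPM at 22 °C, 205, 269.9 and 264 TPM after 3 h and 56.1, 47.4 and 55.9 TPM after 12 h. BXL1, a β-xylosidase and arabinosidase, was also below 22 °C after 12 h in every library. At 22 °C COBL8 had 3.41, 3.69 and 3.25 TPM, with 30.9, 30.3 and 33.0 TPM after 3 h and 6.36, 5.19 and 6.94 TPM after 12 h. COBL8, a COBRA-like protein, in contrast stayed above it. XT1, a xylosyltransferase of xyloglucan, LGT8, a glycosyltransferase of family 8, and AT2G41640, one of family 61, were 2.18, 3.01 and 5.60 times 22 °C after 3 h. For XTH33 the values were 2.70, 3.73 and 4.21 TPM at 22 °C, 8.87, 9.03 and 8.42 TPM after 3 h and 2.69, 3.45 and 1.72 TPM after 12 h. The xyloglucan-remodeling enzymes XTH33 and XTH26 and AT1G02810, annotated in the invertase and pectin methylesterase inhibitor superfamily, were the weakest by level, at 8.77, 5.90 and 12.2 TPM after 3 h.

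Transport or metabolism is the role of 7 members. Levels of AT5G52050 were 7.09, 6.60 and 7.16 TPM at 22 °C, 31.8, 20.5 and 28.0 TPM after 3 h and 2.64, 2.21 and 2.83 TPM after 12 h. AT5G52050 is the MATE transporter DTX50, an exporter of abscisic acid, and was at 0.369 of 22 °C after 12 h. DIC2 had 35.7, 26.5 and 30.03 TPM at 22 °C, 74.8, 59.4 and 68.7 TPM after 3 h and 17.0, 11.1 and 13.8 TPM after 12 h. DIC2, a dicarboxylate carrier of the mitochondrial inner membrane, was likewise below 22 °C, at 0.455. NUDT21 was at 61.2, 52.7 and 59.2 TPM at 22 °C, 287, 204 and 249 TPM after 3 h and 47.6, 36.6 and 38.3 TPM after 12 h. The Nudix hydrolases NUDT21 and NUDT4 behaved alike, with the highest library of each being the first at 3 h. The libraries for NUDT4 gave 18.9, 15.4 and 19.7 TPM at 22 °C, 143, 99.9 and 119.9 TPM after 3 h and 18.3, 10.999 and 11.8 TPM after 12 h. At 22 °C PUP18 had 134, 114 and 110.2 TPM, with 332, 331 and 349 TPM after 3 h and 130.1, 89.5 and 107 TPM after 12 h. In the purine permease gene PUP18 the 22 °C and 12 h libraries overlapped. For DIN10 the values were 77.7, 61.4 and 51.9 TPM at 22 °C, 126, 206 and 185 TPM after 3 h and 81.6, 65.5 and 77.8 TPM after 12 h. DIN10, a raffinose synthase-like gene known to rise in the dark, overlapped between 22 °C and 12 h. BCS1, an AAA ATPase of the outer mitochondrial membrane, was 3.24 times 22 °C after 3 h.

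The next 4 members are not protein-coding. Levels of MIR167d were 3.80, 9.01 and 2.90 TPM at 22 °C, 18.0, 27.7 and 30.5 TPM after 3 h and 7.65, 5.95 and 4.23 TPM after 12 h. The locus MIR167d (chr1:11137539-11137915, plus strand) holds a precursor of miR167, which targets the auxin response factors ARF6 and ARF8. These libraries measure reads on the precursor, as few as 4 in a library, and not the mature miRNA. Its annotated mature sequence, shown with bases 2 to 8 (the seed) in capitals, is
miR167d: tGAAGCTGccagcatgatctgg
AT3G06962 had 3.89, 3.51 and 0 TPM at 22 °C, 8.87, 15.7 and 20.6 TPM after 3 h and 0, 4.13 and 0 TPM after 12 h. This noncoding RNA had at most 6 estimated reads in any library and was listed at 0 in 2 of the 12 h libraries and 1 at 22 °C. AT2G35637 is a noncoding RNA antisense to AT2G35640, and averaged 1.27 ± 0.37 TPM at 22 °C, 6.44 ± 0.42 TPM after 3 h and 0.996 ± 0.328 TPM after 12 h (SD, n = 3). AT2G35640 itself was at 0.905, 1.48 and 0.613 TPM at these times. AT1G08043 was at 1.08, 0.406 and 1.25 TPM at 22 °C, 7.72, 4.02 and 4.40 TPM after 3 h and 2.04, 1.85 and 1.42 TPM after 12 h. AT1G08043, another noncoding RNA, stayed above 22 °C in every library after 12 h. It shares 28.3% of its 31-base words with the overlapping AT1G55270, so its reads could be split with that gene.

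Of the remaining 25 members, most with no role known with certainty, several were among the strongest. The libraries for AT5G11070 gave 60.7, 51.1 and 58.5 TPM at 22 °C, 462, 436 and 477 TPM after 3 h and 122, 81.4 and 96.1 TPM after 12 h. At 22 °C AT1G18740 had 41.0, 39.5 and 43.8 TPM, with 435, 399.7 and 420.1 TPM after 3 h and 71.8, 45.6 and 61.2 TPM after 12 h. AT1G18740 has a DUF793 domain, and both genes stayed above the 22 °C range after 12 h in all libraries. For AT4G27654 the values were 1.22, 4.34 and 5.27 TPM at 22 °C, 60.6, 48.6 and 63.5 TPM after 3 h and 2.58, 8.69 and 9.11 TPM after 12 h. Levels of AT4G27657 were 19.9, 28.3 and 23.4 TPM at 22 °C, 102, 71.6 and 81.9 TPM after 3 h and 23.2, 25.5 and 29.0 TPM after 12 h. For the neighbors AT4G27654 and AT4G27657, the 3 h mean was 15.96 and 3.57 times that at 22 °C, and the 12 h libraries overlapped the 22 °C libraries in both. AT4G27654 had as few as 4 estimated reads in a library. AT3G23170 had 27.4, 25.01 and 25.3 TPM at 22 °C, 178, 166 and 178 TPM after 3 h and 59.2, 38.6 and 49.7 TPM after 12 h. AT5G22930 was at 5.81, 4.11 and 6.27 TPM at 22 °C, 12.6, 12.5 and 12.0 TPM after 3 h and 2.57, 2.09 and 1.91 TPM after 12 h. AT3G23170 was among the highest members at 12 h relative to 22 °C, and AT5G22930, of the DUF1635 family, among the lowest.

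The rule held the 12 h mean under 2 times that at 22 °C and the 3 h mean at 2 or more times the 12 h mean, so the 12 h levels given here are a description. On the TPM scale the 12 h mean was above that at 22 °C in 47 members and below it in 51, with a median ratio of 0.984 and a range of 0.197 to 1.98. There were 7 members under 0.5 times 22 °C, namely PHI-1 (0.197), SZF1 (0.303), AT5G52050 (0.369), AT2G30020 (0.377), AT5G22930 (0.405), AT5G03355 (0.441) and DIC2 (0.455), and 15 were at least 1.5 times. All 3 libraries after 12 h were above all 3 at 22 °C in 19 members and below them in 31, where this held for 18.1% and 46.6% of all loci with at least 5 TPM after 3 h. The rule set the upper end of this ratio but not the lower. These counts moved with the scale. On CPM with TMM factors, which changes both the unit and the scaling, the median was 0.21 on the log2 scale, against -0.02 for TPM. The counts with no overlap were then 32 above and 16 below, where this held for 31.3% and 29.3% of the same loci. In edgeR's quasi-likelihood fit with those factors, 26 of the 97 members tested were called higher after 12 h than at 22 °C and 14 lower (called where the adjusted p was under 0.05 and log2 differed by 0.5 or more), where 15.5% and 17.7% of all 20460 genes were. With upper quartile factors the counts were 18 and 18, where 12.5% and 23.2% of all genes were called, and the median of all genes shifted by -0.16. Nothing is read from these counts, since the rule used the ratio of 12 h to 22 °C. The 14 lower genes were the 7 named above with BXL1, AT1G19380, WRR4, CAMBP25, WRKY22, LOX4 and AT3G62570.

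**Figure D3:**
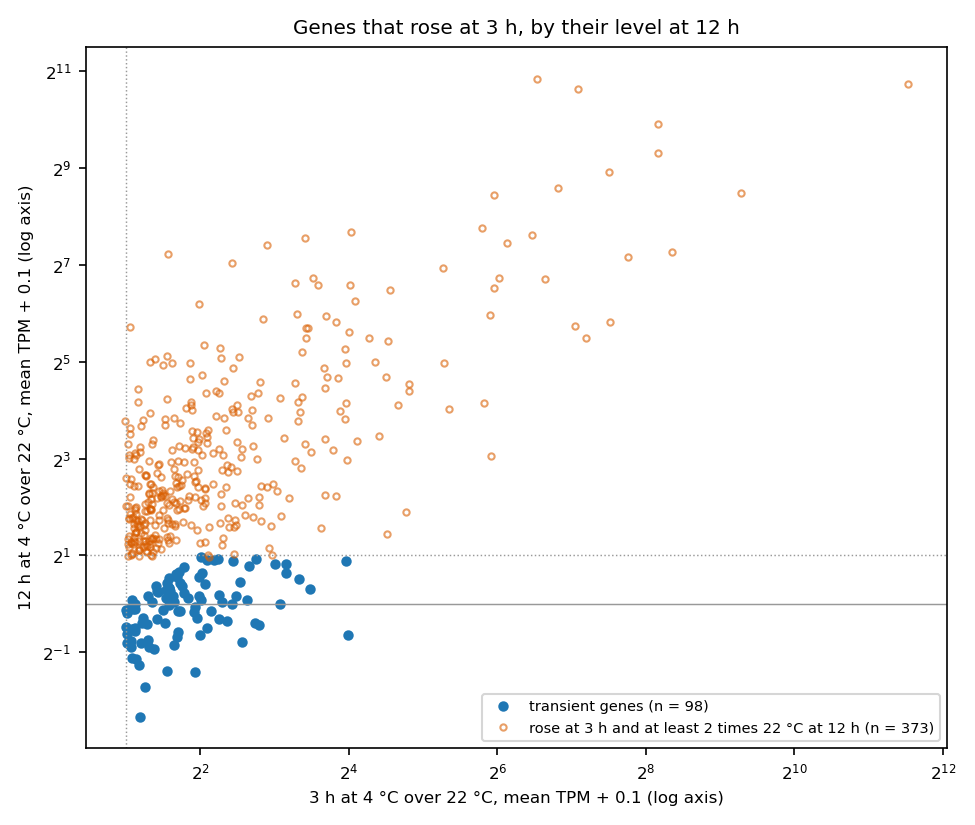
Ratio of group means (TPM + 0.1) after 12 h (vertical axis) and 3 h (horizontal axis) to 22 °C, both on log axes, for the 98 transient genes (filled) and the 373 loci that rose at 3 h and were at least 2 times 22 °C after 12 h (open). The dotted lines mark 2 times 22 °C and divide the sets by construction. Without the added 0.1, the transient genes reach 16.7 times 22 °C after 3 h, and they spread from 0.197 to 1.98 times at 12 h.

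In the same fit, 95 of 97 members were called higher after 3 h than at 22 °C, where 7.05% of all genes were, and 95 lower after 12 h than after 3 h, where 14.8% were. The rule used these contrasts, so nothing is read from these counts. The members not called were IDL1 and CLE14 in the first contrast and AT1G01130 and CLE14 in the second, and AT3G06962 had too few reads to be tested.

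Exon structure, which the rule did not use, differed between the sets, with no test run. Of the 94 protein-coding members, 52 (55.3%) have 1 exon in every annotated transcript, against 31.3% of the 367 that were still high at 12 h and 10.9% of 15148 with at least 5 TPM after 3 h. The median of the largest exon number was 1, 2 and 5 in these sets, and the median length of the longest transcript 1412, 1475 and 1720 bases. A single annotated transcript was present for 80.9%, 61.6% and 50.8%. By role, 18 of the 25 uncharacterized or other members and 5 of the 6 grouped as other nuclear proteins have 1 exon. So do 6 of the 12 transcription factors and 6 of the 9 proteins of turnover, against 1 of the 9 at the cell wall.

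Both strands were searched for 8 other motifs. The CRT/DRE core CCGAC, bound by CBF factors, was in 9.57% of the transient genes, against 23.4% of those still high at 12 h and 16.6% of the genes with at least 5 TPM. The evening element AAATATCT, bound by clock factors, was in 11.7%, against 24.5% and 6.25%. The abscisic acid element core ACGTGT was in 26.6%, against 23.4% and 13.8%, and the G-box CACGTG, with which it can share letters, in 9.57%, against 14.2% and 9.24%. The site II element TGGGCC was in 6.38%, against 7.90% and 19.8%. GCCGCC was in 3 members, AACNGTT in 4 and a 3-unit heat shock element in none. Over all 27443 promoters the shares were 15.0% for CCGAC, 5.65% for AAATATCT, 12.4% for ACGTGT, 7.68% for CACGTG, 15.5% for TGGGCC, 2.57% for GCCGCC, 8.73% for AACNGTT and 0.481% for the heat shock element. CGCGT or TTGACC was present in 52 of 94 transient genes (55.3%), 31.9% of those still high and 21.5% of all promoters, and both together in only 4 members (4.26%, against 1.34% of all promoters). CGCGT matched at 2 or more positions, 2 for the palindrome, in 14 members (14.9%). This held for 11.4% of those still high, 3.65% of the genes with at least 5 TPM and 2.95% of all promoters. Every share is a count of letters, and no test was run.

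**Figure D4:**
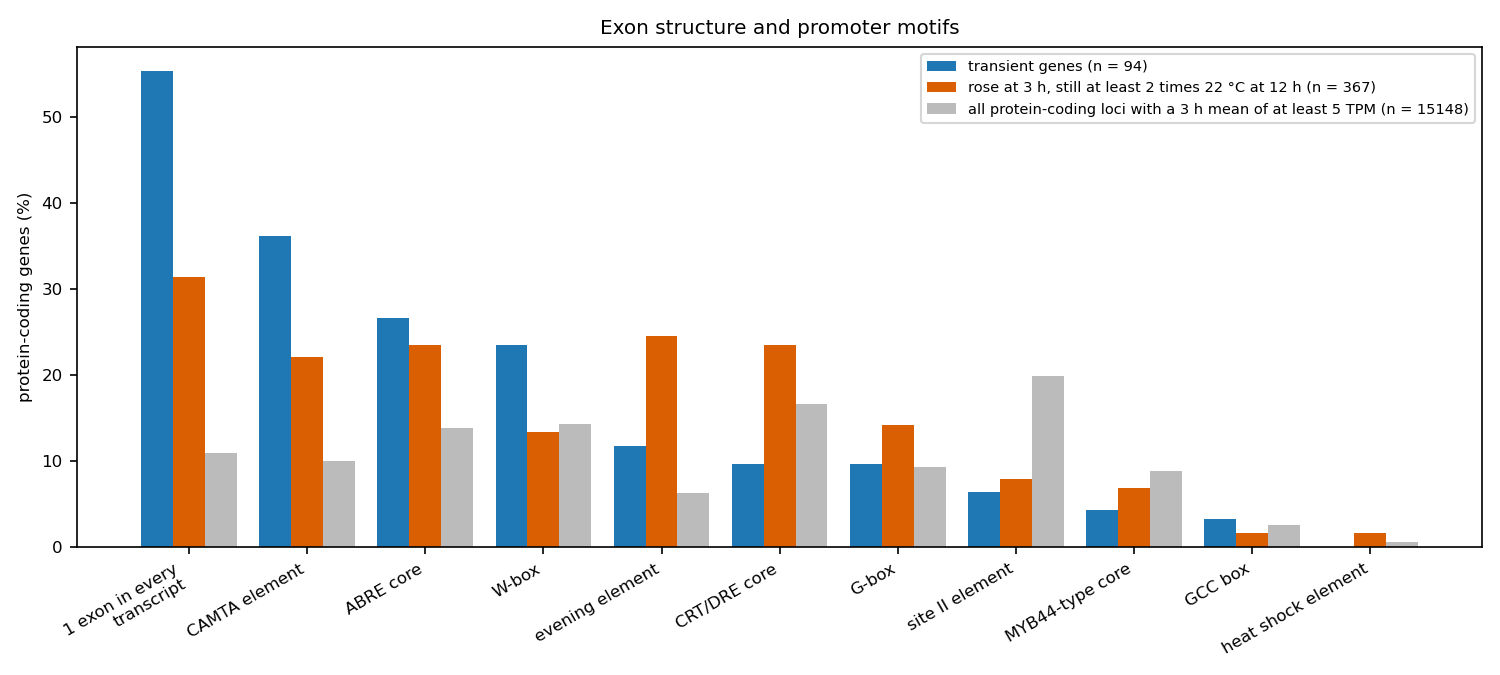
Share of protein-coding genes (vertical axis, %) with 1 exon in every transcript and with each motif from 250 bases before to 50 after the gene start, for the transient genes, the genes that rose at 3 h and were still at least 2 times 22 °C at 12 h, and all with at least 5 TPM after 3 h. The CAMTA element and the W-box are the CGCGT and TTGACC of the text. The transient genes lead in single-exon genes (55.3%), the CAMTA element (36.2%), the ABRE core (26.6%) and the W-box (23.4%), and the genes still high lead in the evening element (24.5%) and the CRT/DRE core (23.4%).

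By role, CGCGT was in 5 of 9 members at the cell wall, 5 of 10 of hormones, 4 of 7 of transport and metabolism and 4 of 7 peptides and immune proteins, but in 1 of 12 transcription factors (NAC062) and 1 of 9 of protein turnover (CMPG1). The remaining roles held CGCGT in 3 of 6 other nuclear proteins, 2 of 9 kinases, phosphatase and calcium proteins and 9 of 25 other members. W-boxes were in 4 of the 9 of protein turnover, 3 of 7 peptides and immune proteins and 3 of the 12 transcription factors. They were in 1 of 9 at the cell wall, 1 of 10 of hormones and 2 of 9 kinases, phosphatase and calcium proteins. The rest were in 1 of 6 other nuclear proteins, 2 of 7 of transport and metabolism and 5 of 25 other members. Members with CGCGT were 3.05 times 22 °C after 3 h in the median and those without it 3.24 times. Against 12 h the medians were 3.49 and 3.36 times. For the W-box the medians were 3.19 times 22 °C with it and 3.13 times without it, and against 12 h they were 4.81 and 3.14 times. The rule used both ratios, and these are descriptions over genes, which are not replicates.

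Several transient genes have relatives whose libraries after 3 h and after 12 h all lay above those at 22 °C. The relatives named here were chosen after their values were seen. The libraries for ERF4 gave 61.0, 72.1 and 64.4 TPM at 22 °C, 171, 210.0 and 206 TPM after 3 h and 213, 197 and 215 TPM after 12 h. At 22 °C WRKY18 had 10.4, 7.50 and 8.59 TPM, with 22.5, 27.9 and 26.7 TPM after 3 h and 112, 113 and 122 TPM after 12 h. In WRKY18 every 12 h library was above every 3 h library. For JAZ1 the values were 27.2, 30.3 and 33.8 TPM at 22 °C, 174, 177 and 166 TPM after 3 h and 199, 208 and 211 TPM after 12 h. Levels of ARR7 were 19.4, 21.1 and 20.4 TPM at 22 °C, 82.9, 138 and 115 TPM after 3 h and 73.7, 53.5 and 74.5 TPM after 12 h. In ARR7 the 12 h libraries lay below those after 3 h and above those at 22 °C. LOX3 had 3.35, 3.58 and 4.07 TPM at 22 °C, 9.17, 13.6 and 12.7 TPM after 3 h and 14.1, 7.62 and 12.4 TPM after 12 h. ZAT6 was at 10.9, 15.1 and 12.2 TPM at 22 °C, 40.1, 37.3 and 33.1 TPM after 3 h and 169, 200.04 and 175 TPM after 12 h. In ZAT6 every 12 h library was above every 3 h library. No difference between a member and its relative was tested.

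**Figure D5:**
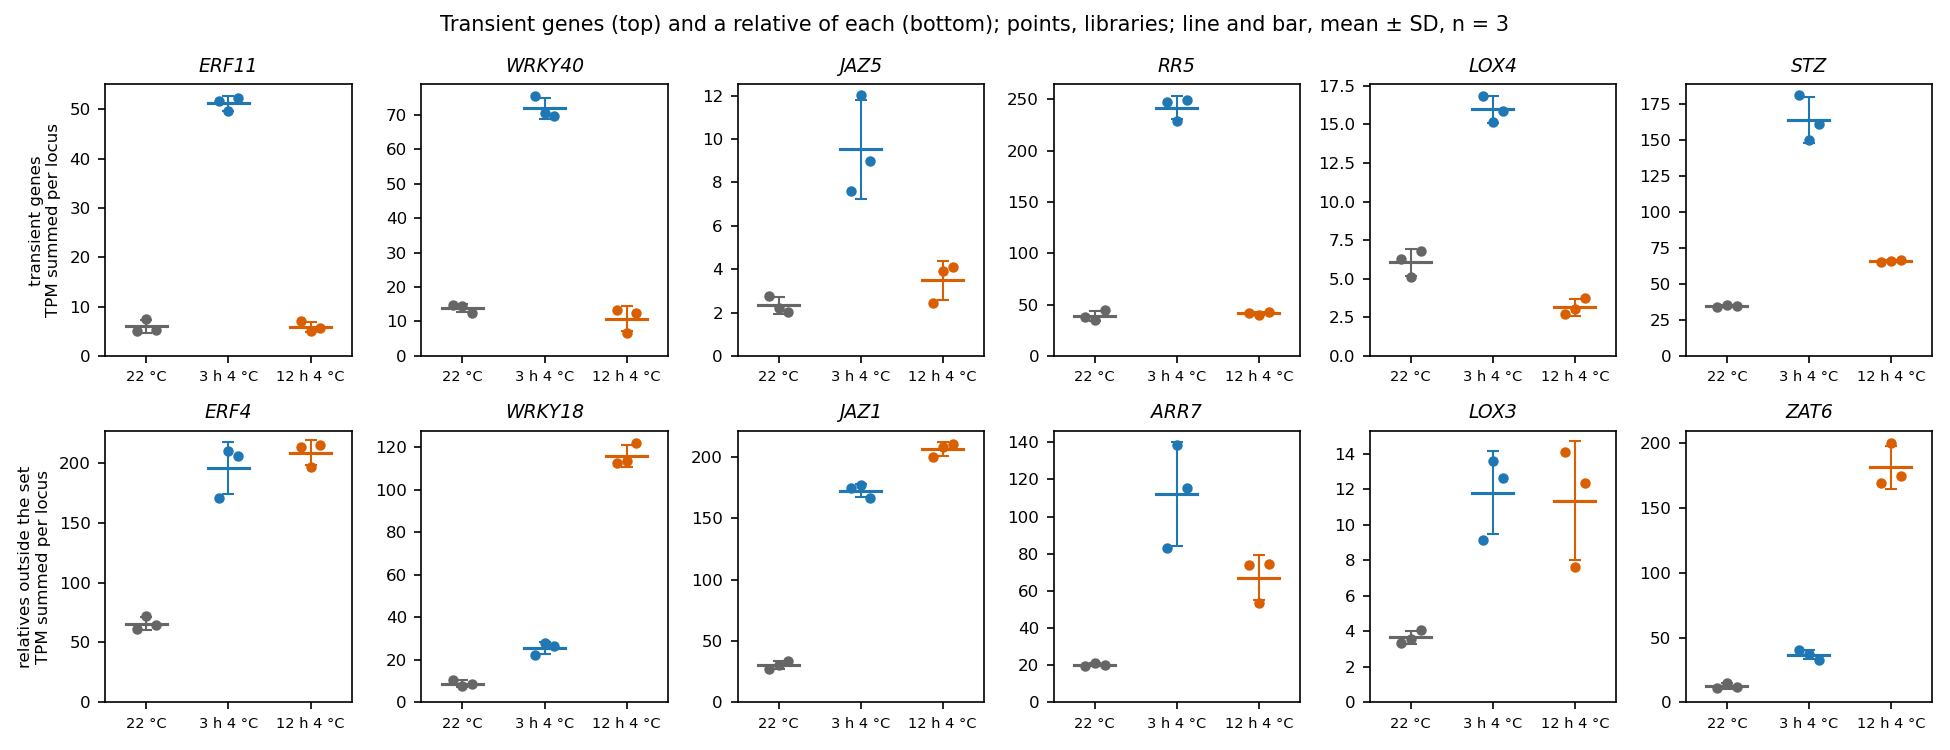
TPM summed per locus in each library (points) with mean and SD (line and bar, n = 3) for 6 transient genes (top) and a relative of each outside the set (bottom), by group in time order, with a vertical axis of its own in each panel. ERF11, WRKY40, JAZ5, RR5, LOX4 and STZ are highest after 3 h. Every 12 h library lies above every 22 °C library in the 6 relatives, and also in STZ. On CPM with TMM factors STZ was not a member.

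The gene lists place some members beside selected genes of their families, and all calls in them are against 22 °C. Of all 20460 genes tested, 7.05% were called higher and 3.47% lower after 3 h, and 15.5% higher and 17.7% lower after 12 h. Of 18 ERF factors of groups VIII and IX, 2 were members. Of the 16 tested, 6 were called higher and 2 lower after 3 h than at 22 °C, and 4 higher and 5 lower after 12 h. Of 19 WRKY factors, 3 were members, and 9 were called higher and 0 lower after 3 h, 7 higher and 5 lower after 12 h. Of 8 ZAT and AZF zinc fingers tested, 2 were members, and 5 were higher after 3 h and 5 higher and 1 lower after 12 h. Of 10 type-A response regulators, 2 were members, and 4 of 9 tested were higher after 3 h and 2 higher and 1 lower after 12 h. Of 22 genes of JAZ repressors and jasmonate synthesis, 2 were members, and 7 of 21 tested were higher after 3 h and 8 higher and 6 lower after 12 h. Of 16 genes of pattern-triggered immunity, 3 were members, and 10 of 15 tested were higher and 0 lower after 3 h, 5 higher and 3 lower after 12 h. Of 15 genes tested of the MAP kinase cascade and its phosphatases, 1 was a member, and 5 were higher after 3 h and 4 higher and 2 lower after 12 h. Of 14 CBF, DDF and RAV factors, 0 were members and 9 were still high at 12 h. Of the 13 tested, 10 were higher and 1 lower after 3 h, and 11 higher and 2 lower after 12 h. CBF2, for example, averaged 3.87 TPM at 22 °C, 1303 TPM after 3 h and 612 TPM after 12 h. The 20 clock genes held 0 members and 6 that were still high, and 8 were higher and 0 lower after 3 h, 14 higher and 3 lower after 12 h. Lists with 1 member each were those of stress NAC factors (NAC062), heat shock factors (HSF A4A), U-box and RING ligases (PUB23), abscisic acid metabolism and its phosphatases (CYP707A3), XTH genes (XTH33), and shade, dark and sugar markers (DIN10). Of 7 NAC factors tested, 2 were higher and 1 lower after 3 h, and 6 higher and 0 lower after 12 h. Of 11 heat shock factors, 5 were higher and 1 lower after 3 h, and 6 higher and 3 lower after 12 h. Of 11 ligases, 1 was higher and 1 lower after 3 h, and 0 higher and 3 lower after 12 h. Of 13 abscisic acid genes, 6 were higher and 1 lower after 3 h, and 10 higher and 1 lower after 12 h. Of 11 XTH genes, 6 were higher and 0 lower after 3 h, and 4 higher and 3 lower after 12 h. Of 12 shade, dark and sugar markers, 4 were higher and 0 lower after 3 h, and 5 higher and 2 lower after 12 h. The other lists held 0 members. Among these, 15 stress MYB factors gave 4 higher and 5 lower after 3 h and 1 higher and 8 lower after 12 h, and 17 calmodulin-like and calcium genes gave 10 higher and 0 lower, then 8 higher and 3 lower. The 10 ethylene synthesis genes gave 4 higher and 0 lower after 3 h and 5 higher and 2 lower after 12 h. The 14 auxin response genes gave 5 higher and 0 lower, then 7 higher and 2 lower, and 9 gibberellin genes tested 3 higher and 1 lower, then 4 higher and 4 lower. These lists were drawn up from general knowledge with earlier results of these data known, and they do not hold whole families. WRKY72, XTH26, MAPKKK14 and the U-box or RING ligases other than PUB23 are members outside them.

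Only 20 of the 98 members have more than 1 transcript, and in each comparison 14 of these had at least 5 TPM in both groups. A transcript changed its share of the locus by at least 10 percentage points, without overlap of the libraries, in 3 of 14 members for 3 h against 22 °C (12.5% of all such loci), in 2 for 12 h against 3 h (13.3%) and in 5 for 12 h against 22 °C (18.8%). BT2 shifted most at 3 h. Its transcript BT2.1 took 29.4%, 26.8% and 24.3% of the locus at 22 °C, 46.0%, 52.9% and 48.9% after 3 h and 32.6%, 31.7% and 30.4% after 12 h. The longer BT2.2 (2419 bases, against 2077) took 56.2%, 57.0% and 55.7% at 22 °C, 35.6%, 31.5% and 33.4% after 3 h and 45.8%, 46.1% and 45.5% after 12 h. In TPM, BT2.1 averaged 147 after 3 h against 32.7 at 22 °C, and BT2.2 averaged 99.8 against 68.2. For AT2G27080, the transcript AT2G27080.2 took 20.6% of the locus at 22 °C, 2.96% after 3 h and 9.67% after 12 h. In CYP707A3 the second transcript took 3.19% after 12 h against 15.8% at 22 °C, and in DIN10 the first took 3.44% against 18.4%. In XT1 the shift rests on 1 of the 22 °C libraries, where the second transcript was at 50.5%, against 6.35% and 4.04% in the other two. The split between transcripts of a locus is Salmon's estimate.

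Members are spread over the genome, 32 on chromosome 1, 14 on 2, 19 on 3, 13 on 4 and 20 on 5. A gene on the other strand overlaps 11 of them, WRKY40, AT2G27080, PUB23, COBL8, RDUF1, DIN10, ZF3 and ARR6 included. The libraries were strand-specific, but the strand setting used for counting is not given in the sources used here. Of the 12 overlapping partners, 2 were at least 2 times 22 °C after 3 h, and both were under 2 TPM. A second partner of COBL8, AT3G03385, was listed at 0 at 22 °C and averaged 1.43 TPM after 3 h. No partner was a member. AT2G41640 shares 28.7% of its 31-base words with the overlapping AT2G41650 on the same strand, which averaged 45.9 TPM at 22 °C, 42.6 TPM after 3 h and 42.7 TPM after 12 h. In the members other than AT2G41640 and AT1G08043 at most 8.24% of such words occur elsewhere. Within the 3 h group, replicate 1 was the highest library in 50 members, replicate 2 in 19 and replicate 3 in 29, and their assigned reads ran in the order 24291527, 18267505 and 21498541. The part of depth in this order was not tested. There were 6 members with fewer than 10 estimated reads in their lowest library, AT3G06962, AT1G01130, AT1G08043, MIR167d, AT4G27654 and CLE14.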

How the data were processed

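Seedling RNA was sequenced by the authors as strand-specific libraries. They removed rRNA reads with SortMeRNA, trimmed with Trimmomatic and quantified against ARAPORT11 with Salmon, and the Salmon options are not given in the sources used here. The deposited tables give estimated counts and TPM for each of 53467 transcripts, and both were summed here to 32310 loci. Members were chosen on TPM. No columns of the authors' own comparisons were used.

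Estimated counts were rounded and fitted with edgeR 4.0.16 in R 4.3.3, all 9 libraries in one model, with filterByExpr, TMM factors, the quasi-likelihood F test and Benjamini-Hochberg adjustment over 20460 genes. Genes were called where the adjusted p was under 0.05 and the log2 fold change was 0.5 or more in size. The fit was tested on simulated data. Tables and figures used Python 3.11.15, pandas 2.3.3, numpy 2.4.6 and matplotlib 3.10.9. Depth was 15910836 to 24291527 assigned reads per library, and members with few reads are named in the text. Replicates are seedlings from separate plates, so p-values measure the spread between such batches. Gene models, products and sequences came from RefSeq's annotation of TAIR10.1, in which all 98 members were found by locus.

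The members and gene lists were chosen with earlier results of these data known, and the roles by which members are grouped were set after their values were seen. Values were given for the 12 members highest at 3 h, the 12 with the largest smaller ratio, members in a gene list, loci nearest each threshold, the 5 lowest and 5 highest at 12 h relative to 22 °C, members with shifted transcript shares and adjacent members. Members named beyond these, and CBF2 and the relatives, were chosen after their values were seen. From the lists, 4 loci whose symbols were not matched were left out. Alternatives were other scale factors, no filter, a larger fold threshold, DESeq2 1.42.0, a replicate block, each library left out, other thresholds for membership and for shares, and a narrower promoter window.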

Additional observations from a re-analysis of the deposited data

How the results depend on the processing

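The number of members depended most on the ratio asked for, with 259 genes at 1.5 times and 41 at 3 times. It was 75 with CPM and TMM factors (66 of the 98 kept), 138 at a minimum of 1 TPM, 80 at 10 TPM, 106 where libraries could overlap and 83 with 12 h under 1.5 times 22 °C. Of the 32 lost with CPM, 12 had a 3 h mean under 5 CPM. Another 13 were at 2 or more times 22 °C after 3 h but under 2 times 12 h. BT2, DIN10, PYL6, TMAC2 and AT3G52800 were among them. The last 7 were at 2 or more times 22 °C after 12 h: STZ, AT5G11070, COBL8, AT3G23170, AT1G07135, AT3G16510 and AT4G27654. With a log2 fold change of 1 or more required, 769 of all genes were called higher after 3 h than at 22 °C, 1198 lower after 12 h than after 3 h, and 1801 higher and 1691 lower after 12 h than at 22 °C, and the last 2 counts for the transient genes were 8 and 5. Transcript shares that moved by 20 percentage points or more were found in 1 member in each contrast, with 4.76%, 5.79% and 9.61% of all loci for 3 h against 22 °C, 12 h against 3 h and 12 h against 22 °C. The balance of the transient genes after 12 h against 22 °C turned with the scale, with 47 above and 51 below on TPM and 62 above and 36 below on CPM with TMM factors.

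With 1 library left out in turn, members numbered 94 to 110. Genes called higher after 3 h than at 22 °C numbered 1303 to 1478 (92 to 96 transient), and lower after 12 h than after 3 h 2737 to 2997 (92 to 95 transient). After 12 h against 22 °C, 3108 to 3249 were higher (22 to 30 transient) and 3354 to 3634 lower (12 to 15 transient). Members with shifted shares numbered 2 to 4, 2 to 3 and 4 to 6 in the 3 contrasts, with 12.5% to 18.2%, 13.3% to 19.4% and 18.8% to 23.8% of all loci. Residuals of libraries with the same replicate number correlated at -0.197 to 0.105, so the numbers were not taken as pairs. With a replicate block, 1393 genes were higher after 3 h than at 22 °C, 2921 lower after 12 h than after 3 h, and 3123 higher and 3542 lower after 12 h than at 22 °C, with 95, 95, 25 and 14 transient genes.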
